A study of Mus musculus with 4 samples.

Results

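The CC chemokine genes Ccl2, Ccl3, Ccl4, Ccl6, Ccl7, Ccl8, Ccl9 and Ccl11 were followed across 4 single-cell libraries of mouse testis, to see which cells held the transcripts of each ligand and in which library. These 8 genes were taken by symbol, out of 31017 symbols in the count matrices, with earlier results of these data known. All animals carried an Acr-Gfp transgene (Acr-Gfp tg) on C57BL/6. The groups were testes of 7 days postpartum (dpp) kept for 2 days in organ culture (2-day culture), testes of the same age kept for 7 days (7-day culture), and testes taken without culture at 9 dpp and at 14 dpp. In culture, testis fragments lay on agarose wetted with α-MEM and AlbuMAX, a lipid-rich bovine albumin, beneath a ceiling chip of PDMS, a silicone. The age at the start plus the days in culture equals the age of the matching uncultured testis, so the 2-day culture was set against 9 dpp and the 7-day culture against 14 dpp. Each group had 1 library and the number of animals behind it is not given in the sources used here. A culture effect and a library effect therefore cannot be told apart, no test between groups was run, and every interval covers counting error only.

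CC chemokines are small secreted proteins that bind to matrix sugars and draw leukocytes along a gradient through G protein-coupled receptors. Ccl2 and Ccl7, of the monocyte chemoattractant family, act on monocytes through Ccr2. Ccl11, eotaxin, acts on eosinophils through Ccr3, and Ccl3, Ccl4, Ccl6 and Ccl9 act on macrophages and granulocytes, several of them through Ccr1. The testis holds resident macrophages in the interstitium, between the tubules, and fibroblast-like stromal cells that can release chemokines when stimulated with inflammatory cytokines.

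All 8 genes lie on chromosome 11 of GRCm38 in 2 groups. Ccl2 (ENSMUSG00000035385, 82035571 to 82037453), Ccl7 (ENSMUSG00000035373, 82045712 to 82047525), Ccl11 (ENSMUSG00000020676, 82057823 to 82062955) and Ccl8 (ENSMUSG00000009185, 82115185 to 82116799) lie within 81.2 kb, all on the plus strand. Ccl9 (ENSMUSG00000019122, 83572919 to 83578636), Ccl6 (ENSMUSG00000018927, 83587882 to 83593087), Ccl3 (ENSMUSG00000000982, 83647844 to 83649355) and Ccl4 (ENSMUSG00000018930, 83662584 to 83664683) lie within 91.8 kb, 1456 kb further along. Ccl4 is on the plus strand and the other 3 genes of that group are on the minus strand. The annotation gives all 8 as protein coding.

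The RefSeq promoter table (GRCm38.p6) held 4 of the 8 genes: Ccl3, Ccl6, Ccl8 and Ccl9. They are shown because Ccl9 and Ccl3 differed in opposite directions between the whole libraries of the cultures while sharing a cell source. Ccl8 was lower in the longer culture, as was Ccl3, but had a different main cell source in the shorter culture. These differences are described further on. Each line gives the 150 bases before the annotated start, 5′ to 3′ on the gene's strand, and capitals mark motif matches. The windows are chr11:83578637-83578786 (minus strand) for Ccl9, chr11:83649379-83649528 (minus strand) for Ccl3, chr11:83593088-83593237 (minus strand) for Ccl6 and chr11:82115035-82115184 (plus strand) for Ccl8.
Ccl9: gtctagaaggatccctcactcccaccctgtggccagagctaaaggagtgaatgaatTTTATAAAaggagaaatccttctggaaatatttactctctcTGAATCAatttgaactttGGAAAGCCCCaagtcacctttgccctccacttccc
Ccl3: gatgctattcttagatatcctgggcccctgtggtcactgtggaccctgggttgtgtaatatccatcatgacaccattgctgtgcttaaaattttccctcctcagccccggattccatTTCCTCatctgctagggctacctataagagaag
Ccl6: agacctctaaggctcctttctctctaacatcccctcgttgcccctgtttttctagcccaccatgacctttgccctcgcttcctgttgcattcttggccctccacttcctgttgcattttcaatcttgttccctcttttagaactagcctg
Ccl8: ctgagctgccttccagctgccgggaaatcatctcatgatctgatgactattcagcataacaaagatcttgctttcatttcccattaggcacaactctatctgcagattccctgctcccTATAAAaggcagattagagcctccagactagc

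A set of 4 motifs was searched on both strands of the 250 bases before the start: the NF-κB consensus, the AP-1 motif TGANTCA, the PU.1 core GAGGAA and the TATA box TATAAA. Ccl9 held an NF-κB consensus match on the opposite strand at 35 to 26 bases before the start, an AP-1 match at 53 to 47 bases, and TATA box letters in 2 overlapping matches at 94 to 87 bases, with a further match outside the printed window. Ccl3 held 1 PU.1 core, on the opposite strand at 33 to 28 bases. Ccl8 held a TATA box at 32 to 27 bases and a PU.1 core outside the printed window, and Ccl6 held no match to the 4 motifs. Among 27025 promoters of the same window, 7.01% held the NF-κB consensus, 6.87% the AP-1 motif, 23.1% the PU.1 core and 13.0% the TATA box. These matches describe letters in a window and show no binding.

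The deposited matrices held between 5149 and 7710 barcodes per library, of which 6877 (2-day culture), 4816 (7-day culture), 5150 (9 dpp) and 6195 (14 dpp) were kept. They carried 32078508, 37117012, 57585867 and 56210929 UMIs (unique molecular identifiers, each standing for 1 captured RNA molecule), and between 29 and 75 barcodes were shared by any 2 libraries. Levels are given as CPM, the UMIs of a gene per 1000000 UMIs of its library or class. Where 4 values are given, they follow the order 2-day culture, 7-day culture, 9 dpp, 14 dpp. Cell classes were set per cell, by at least 3 different marker genes of a class and at least 2 more than of any other class, and 21964 of 23038 cells (95.3%) received one. Of these, 99.0% fell in the same class when the cells were clustered instead, and 753 sat at the limit of the rule. The clusters were named from the same marker lists, so that agreement is in part built in. The Leydig-like class was the least settled: it held 138 cells, against 472 in the cluster of that name, which also took 138 stromal- or myoid-like and 196 unassigned cells. The macrophage-like class (C1qa, Csf1r, Adgre1 and 7 other markers, all of them detected in every library) held 10, 17, 28 and 51 cells, in the order given, and the stromal- or myoid-like class (Pdgfra, Dcn, Col1a1 and 7 others) held 2528, 1521, 1523 and 1101. The medians of the macrophage-like cells were 8213, 35230, 10173.5 and 7620 UMIs, so those of the 7-day culture were the deepest. Lymphocyte-like cells numbered 0 to 3 per library, and no cell met the rule for neutrophils, mast cells or erythroid cells.

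Whole-library levels of all 8 ligands were higher in the 2-day culture than at 9 dpp, and those of 7 were higher in the 7-day culture than at 14 dpp. Ccl2 stood at 743 and 98.3 CPM in the cultures of 2 and 7 days, and at 1.46 and 1.60 CPM in the testes of 9 and 14 dpp. The 2 cultures did not overlap with the 2 uncultured testes, which lay close together. The ratio was 510-fold (95% interval 412 to 639) at 2 days and 61.4-fold (49.8 to 76.6) at 7 days.

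Ccl7, the neighbour of Ccl2 on the chromosome, had 156, 28.4, 1.53 and 0.925 CPM in the same order of libraries. Its ratios were 102-fold (82.5 to 127) and 30.7-fold (23.2 to 41.4). Ccl11 had 13.4, 3.23, 0.417 and 0.302 CPM, with ratios of 32.2-fold (21.3 to 50.8) and 10.7-fold (6.41 to 19.0). All 3 genes thus had the same order of libraries at the top: the 2-day culture first, the 7-day culture second.

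Ccl3 had 23.2 and 7.41 CPM in the cultures and 0.295 and 0.694 in the uncultured testes. Ccl4, a macrophage inflammatory protein like it, had 4.89, 3.15, 0.0868 and 0.427 CPM. Ccl6 had 9.23, 3.21, 0.139 and 0.267 CPM. These 3 genes were also highest in the 2-day culture, with ratios to 9 dpp of 78.7-fold (48.8 to 136), 56.4-fold (23.6 to 176) and 66.4-fold (33.3 to 155). Single cells moved several of these levels: without its highest cell, Ccl6 was at 2.31 CPM after 2 days of culture, 1.27 after 7 days and 0.0868 at 9 dpp, Ccl4 at 0.0174 CPM at 9 dpp (4 of its 5 UMIs there were in 1 cell), and Ccl3 at 0.445 CPM at 14 dpp. Ccl9 broke the order, with 4.99 CPM in the 2-day culture and 26.6 in the 7-day culture, against 0.0868 at 9 dpp and 0.338 at 14 dpp. Its ratio was larger in the later pair, at 78.6-fold (50.1 to 131), than in the earlier one, at 57.4-fold (24.1 to 179), though these intervals overlap. Without its highest cell Ccl9 was at 3.18 CPM in the 2-day culture and 0.0521 at 9 dpp.

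Ccl8 was the rarest ligand, with 34 UMIs after 2 days of culture and 1 after 7 days, and with 0 at 9 dpp and 40 at 14 dpp. These are 1.06 and 0.0269 CPM in culture, and 0 and 0.712 CPM without culture. Against a floor of 3 UMIs it was at least 20.3-fold higher in the 2-day culture than at 9 dpp. Between the 7-day culture and 14 dpp it went the other way, at 0.0379 of the uncultured level (0.000935 to 0.223).

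**Figure D1:**
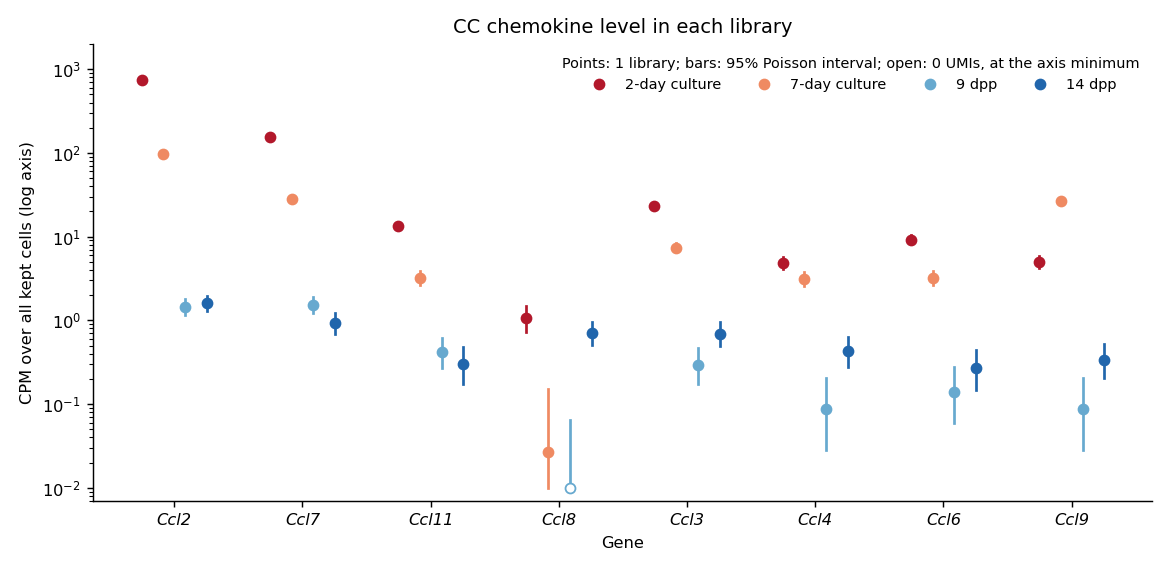
Level of each ligand in the 4 libraries, as CPM over all kept cells on a log axis, with 95% Poisson intervals cut off at the axis minimum and an open point for 0 UMIs. Both cultures lie above both uncultured testes for every gene but Ccl8, and Ccl9 is the gene with its highest point in the 7-day culture.

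A gene was counted as past 2-fold when its log2 ratio of CPM plus 1 was at least 1 in size. By that rule 8 of 8 ligands were higher in the 2-day culture than at 9 dpp, where 4.19% of 16616 genes were higher and 3.41% lower. Ccl8 passed narrowly, at a log2 ratio of 1.04, and was short of 2-fold with each cell weighted equally (0.92), without its highest cell (0.83) and with 10 added to CPM (0.15). In the later pair 7 of 8 were higher, against 3.6% of genes higher and 2.67% lower, and Ccl8 was short of 2-fold on this scale. With each cell weighted equally, Ccl3 (0.92), Ccl4 (0.33) and Ccl6 (0.49) were also short of 2-fold in that pair, as was Ccl6 without its highest cell (0.88). With 10 added to CPM, Ccl3 (0.70), Ccl4 (0.33), Ccl6 (0.36) and Ccl11 (0.36) were. The median log2 ratio of the 8 was 3.26 and 2.02 in the 2 pairs, beside -0.12 and 0.00 over all genes. The uncultured testes served as the baseline of their own pair only, and the 2 pairs share no library.

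The cells behind these totals differed between ligands and, for Ccl2 and Ccl7, between cultured and uncultured testes. At 9 dpp, macrophage-like cells held 86.9% of the 84 Ccl2 UMIs and 93.2% of the 88 Ccl7 UMIs. At 14 dpp they held 76.7% of 90 and 71.2% of 52. In the 2-day culture, stromal- or myoid-like cells held 88.1% of the 23850 Ccl2 UMIs and 91.1% of the 4994 Ccl7 UMIs, and macrophage-like cells 2.56% and 3.12%. The 7-day culture lay between, with 58.6% of Ccl2 in stromal- or myoid-like and 18.5% in macrophage-like cells.

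Ccl7 in the 7-day culture was split in 3, with 41.6% held by stromal- or myoid-like, 14.5% by macrophage-like and 41.7% by unassigned cells. A single unassigned cell held 353 of the 1054 UMIs, and without it the library's level was 18.9 CPM in place of 28.4. That cell carried 6 macrophage and 6 stromal markers, and it was 1 of 4 unassigned cells of the 7-day culture with 6 to 9 markers of both classes. Whether these 4 barcodes hold 1 cell or 2 was not tested. They held 437 of the 508 Ccl2 UMIs in unassigned cells of that library.

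**Figure D2:**
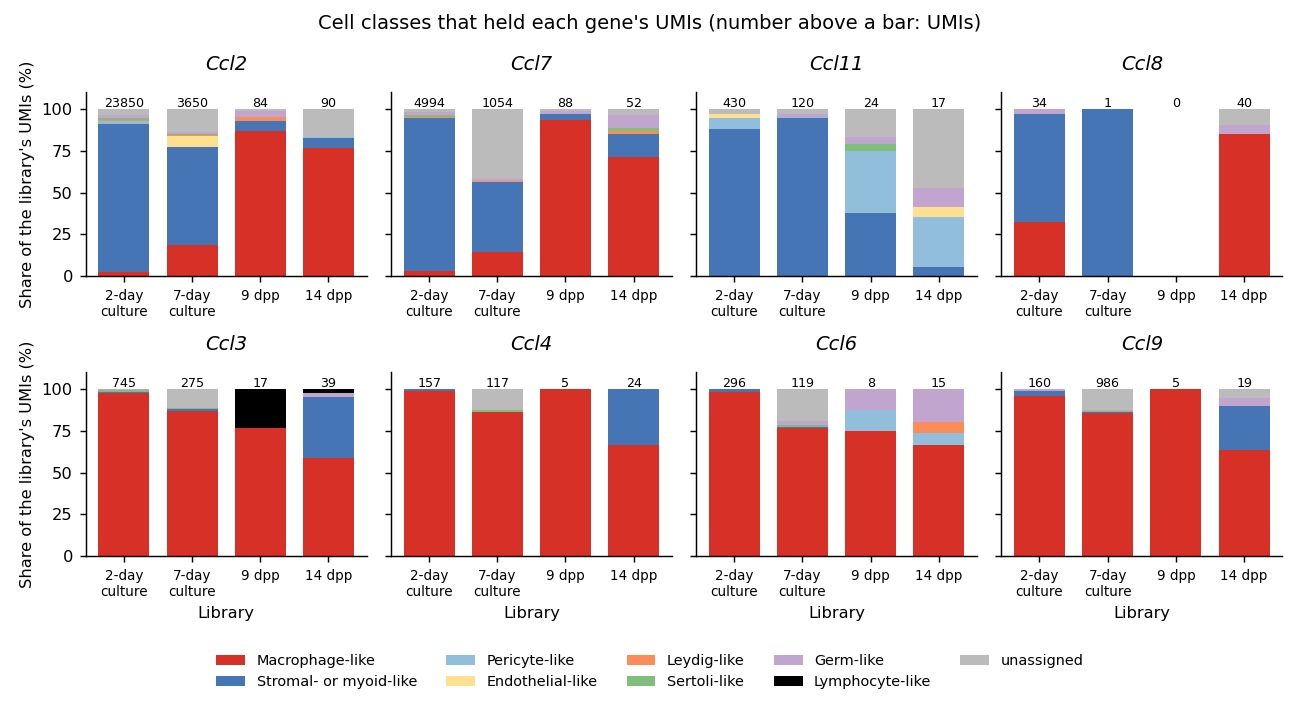
Share of each ligand's UMIs held by each cell class, in percent, for the 4 libraries, with the number of UMIs above each bar. Ccl2 and Ccl7 pass from mostly macrophage-like (red) without culture to mostly stromal- or myoid-like (blue) in the 2-day culture, whereas Ccl3, Ccl4, Ccl6 and Ccl9 stay mostly macrophage-like.

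Within stromal- or myoid-like cells, Ccl2 had 1910 and 299 CPM in the cultures, the shorter first, and 0.518 and 0.999 CPM at the 2 uncultured ages. Both uncultured values rest on 5 UMIs. The class thus went from a handful of molecules to 21022 UMIs at 2 days and 2139 at 7 days, with ratios of 3687-fold (1580 to 11356) and 299-fold (128 to 923). The cells compared lay in different clusters, although the clusters were made without the 8 ligands and the pathway lists. A set of 3 clusters (with Plcxd3, Cxcl5 and C3 as their first genes by fold) held 97.6% and 96.4% of the class in the cultures and 0.131% and 0.545% at 9 and 14 dpp. Another 2 (with Tnnt2 and Clec3b as theirs) held 98.0% and 95.5% of the class at 9 and 14 dpp and 0.158% and 1.05% in the cultures. The part of this split in the ratios was not tested. The cultures also differed within the set of 3. The cluster with Plcxd3 first held 1141 of 2528 class cells at 2 days and 665 of 1521 at 7 days. The one with Cxcl5 first held 1311 and 40, and the one with C3 first 15 and 761. Ccl7 had 414, 61.3, 0.311 and 1.40 CPM in the class, from 4551, 438, 3 and 7 UMIs. Its ratio was 1330-fold (455 to 6453) in the earlier pair and 43.8-fold (21.1 to 110) in the later. Of the 8 ligands, Ccl2, Ccl7 and Ccl11 had enough UMIs in this class to be counted, and 3 of 3 were past 2-fold higher in both pairs, where 5.88% and 5.08% of 12194 genes were higher and 7.15% and 4.23% lower. Between 14 and 9 dpp 0 of 3 were past 2-fold, where 2.1% of genes were higher and 3.11% lower.

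A large share of the stromal- or myoid-like cells of the 2-day culture had a Ccl2 UMI, 47.2% of 2528. The share was 13.5% after 7 days of culture, and 0.197% and 0.272% at the uncultured ages. With each cell thinned to 2000 UMIs and 289, 96, 36 and 93 shallower cells left out, the shares were 42.8% (40.7 to 44.9), 10.7% (9.11 to 12.4), 0.134% and 0.198%. Germ-like cells, taken as the background of free RNA, had 2.99%, 0.412%, 0.0401% and 0% at the same depth, from unthinned shares of 6.73%, 1.58%, 0.119% and 0%. Their median depth was 3597, 6477, 10990 and 6830 UMIs, beside 3708, 4118, 5630 and 4131 in the stromal- or myoid-like class. In both cultures the stromal share was far above the germ-like share, and without culture both were near 0. Ccl7 was found in 22.0% of the thinned stromal- or myoid-like cells at 2 days and 4.21% at 7 days, beside 0.968% and 0.0412% of germ-like cells. Unthinned, those shares were 27.8% and 7.10%, beside 2.42% and 0.551%.

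**Figure D3:**
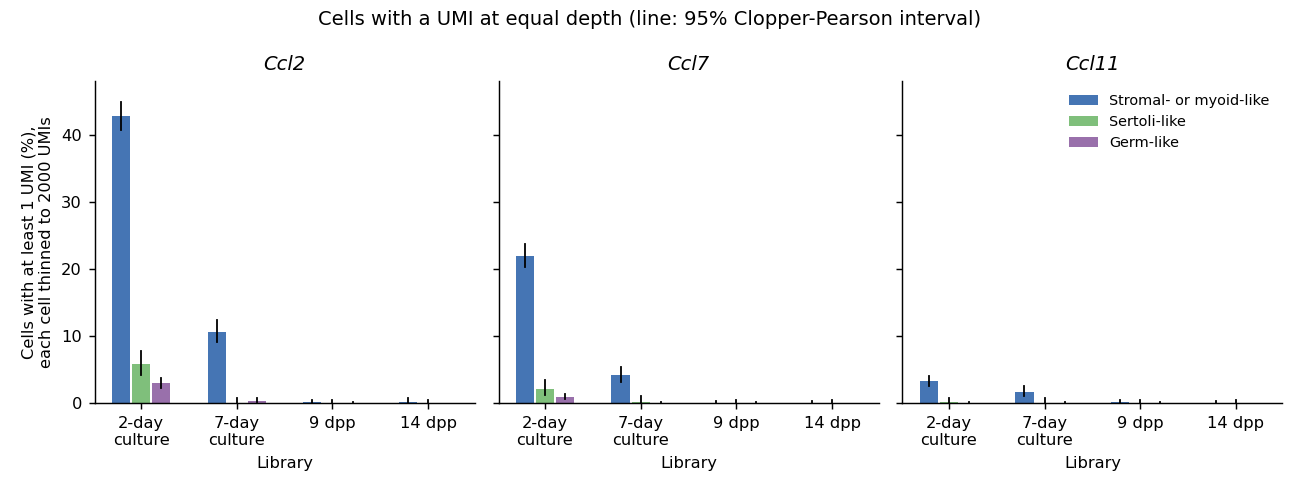
Percent of stromal- or myoid-like, Sertoli-like and germ-like cells with at least 1 UMI of Ccl2, Ccl7 or Ccl11, each cell thinned to 2000 UMIs, with 95% Clopper-Pearson intervals. Ccl2 reaches 42.8% of stromal- or myoid-like cells in the 2-day culture and 10.7% in the 7-day culture, and the bars of the uncultured testes are barely visible.

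With all cells summed, germ-like and Sertoli-like cells of the 2-day culture carried Ccl2 and Ccl7 in nearly the same proportion as the stromal- or myoid-like cells. Ccl7 made up 17.8% (17.3 to 18.3) of the summed Ccl2 and Ccl7 UMIs of stromal- or myoid-like cells, 18.3% (14.7 to 22.4) of those of germ-like cells and 15.9% (12.4 to 19.96) of those of Sertoli-like cells. A single germ-like cell held 100 of the 343 Ccl2 UMIs of its class, where Ccl7 had 77 UMIs. Without that cell 243 Ccl2 UMIs remained, so the germ-like proportion of Ccl7 is higher without it. In macrophage-like cells the proportion was 20.4% (17.6 to 23.4) at 2 days and 18.5% (15.9 to 21.3) at 7 days, though 131 of their 156 Ccl7 UMIs at 2 days came from 1 cell. It was higher in macrophage-like cells without culture, at 52.9% (44.7 to 61.0) at 9 dpp and 34.9% (25.9 to 44.8) at 14 dpp.

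Ccl2 was unevenly spread over the stromal- or myoid-like cells of the 2-day culture. The median cell had 0 UMIs, the upper 10% of the cells began at 22 UMIs and held 73.6% of the class total, and the highest cell had 347. Ccl7 was mostly found beside Ccl2: 598 of the 703 cells with Ccl7 also had Ccl2, which is 85.1% of them and 50.2% of the 1192 cells with Ccl2. Among the 1336 cells without Ccl2, 7.86% had Ccl7, but those cells were also shallower, with a median of 3083.5 UMIs against 4651.5. The part of this depth gap in the overlap was not tested. In the 7-day culture 67 of the 108 Ccl7 cells had Ccl2, or 62.0%.

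Contractile genes such as Myh11 and Cnn1, which mark the muscle-like cells around the tubules, split the class. In the 2-day culture Ccl2 stood at 1166 CPM in the 337 cells with at least 2 of 5 contractile genes and at 2031 CPM in the 2191 others. In the 7-day culture it stood at 146 and 351 CPM. Ccl7 had 251 and 440 CPM at 2 days, and Ccl11 7.80 and 38.8. All 3 ligands were thus lower in the contractile cells of the 2-day culture, but Ccl2 and Ccl7 were not absent from them.

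Small classes of the vessel wall also carried Ccl2. Pericyte-like cells, which wrap capillaries, had 5838 CPM in the 2-day culture, from 442 UMIs in 20 cells, and 3691 CPM without the highest cell. In the 7-day culture 15 such cells had 0 UMIs, which allows up to 26.0 CPM. Endothelial-like cells had 137 CPM in the 2-day culture and 394 in the 7-day culture, but without the highest cell the latter value was 108. The 28 and 22 Leydig-like cells of the cultures, the steroid producers, had 245 and 145 CPM, the latter 43.8 without its highest cell. The cluster of that name, with 113 and 97 cells, had 506 and 115 CPM. These classes hold few cells, and in the 7-day culture the Ccl2 levels of the endothelial-like and Leydig-like classes rested mainly on 1 cell each.

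Ccl11 was the ligand that macrophage-like cells lacked. They had 0 Ccl11 UMIs in every library, which allows up to 34.4, 5.60, 10.8 and 7.42 CPM. Stromal- or myoid-like cells held 88.1% and 94.2% of the Ccl11 UMIs of the cultures, at 34.4 CPM at 2 days and 15.8 at 7 days, beside 9 UMIs (0.933 CPM) at 9 dpp and 1 UMI at 14 dpp. Pericyte-like cells had the highest level in the 2-day culture and in both uncultured testes, at 357, 42.7 and 33.1 CPM, from 27, 9 and 5 UMIs. A single cell held most of these UMIs in each library, and without it the levels were 143, 19.6 and 13.5 CPM. In the 7-day culture they had 1 UMI, or 8.65 CPM, below the stromal- or myoid-like level.

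The Ccl11 total of the 2-day culture leaned on 1 stromal- or myoid-like cell, which held 92 of the 379 UMIs of the class. Without it the class had 26.1 CPM. In all, 132 of 2528 cells (5.22%) had a Ccl11 UMI, and 97 of these also had Ccl2. After thinning the share was 3.31% at 2 days and 1.75% at 7 days, with 0 of 2377 and 0 of 2430 germ-like cells, for which the 95% intervals reach 0.155% and 0.152%. The low counts at 9 and 14 dpp, 24 and 17 UMIs in all, leave the order of those 2 libraries undetermined (ratio 0.726, 0.366 to 1.41).

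Macrophage-like cells of the 2-day culture devoted 2.41% of their UMIs to the 8 ligands, those of the 7-day culture 0.393%, and those of 9 and 14 dpp 0.0659% and 0.0497%. All of these cells fell in 1 cluster, but their markers differed with culture as well. The 10 macrophage markers summed to 8734, 7221, 23451 and 19929 CPM in the class, with C1qa, a complement subunit, at 275, 687, 4294 and 4701 CPM and Cd68, a lysosomal membrane protein, at 1341, 817, 1229 and 942. Of 5 neutrophil markers, S100a9, Retnlg and Cxcr2 had 0 UMIs in the class in every library, whereas S100a8 had 13, 60, 5 and 0, and all 7 lymphocyte markers were at 0. The part of the lower macrophage markers in the ligand levels was not tested. Ccl3, Ccl4 and Ccl9 were detected together in 8 of 10 cells at 2 days, 8 of 17 at 7 days, 1 of 28 at 9 dpp and 0 of 51 at 14 dpp. No ligand at all was detected in 0, 1, 2 and 19 cells. The deep cells of the 7-day culture, with a median of 35230 UMIs, make detection easier there than elsewhere.

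Ccl3 in macrophage-like cells had 8298 CPM after 2 days of culture and 446 after 7 days, beside 46.6 and 56.9 CPM without culture. Per cell, it ranged from 0 to 160 UMIs with a median of 61.5 at 2 days, from 0 to 55 with a median of 10 at 7 days, and its median was 0 without culture. After thinning, Ccl3 was seen in 8 of 10, 6 of 16, 2 of 27 and 4 of 49 cells. The order of the libraries was thus the same in CPM, in UMIs per cell and at equal depth for the 2 cultures, and the uncultured testes were not separated. Within this class Ccl3 was 178-fold higher (103 to 336) in the earlier pair and 7.84-fold (5.10 to 12.6) in the later one. Outside the class, 6 of 2807 germ-like cells of the 2-day culture had a Ccl3 UMI, against 9 of 10 macrophage-like cells.

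Ccl4 had 1777, 188, 17.9 and 39.6 CPM in macrophage-like cells, which held 98.7%, 86.3%, 100% and 66.7% of its UMIs. Ccl2 and Ccl7 were present in the same class, at lower fold than Ccl3 and Ccl4 in the earlier pair. In the later pair Ccl2 was 7.39-fold (5.76 to 9.61) higher and Ccl7 3.12-fold (2.17 to 4.60), beside 4.76-fold (2.79 to 8.65) for Ccl4. Ccl2 had 6992, 1261, 262 and 171 CPM, a ratio of 26.7-fold (20.9 to 34.5) in the earlier pair, and Ccl7 had 1788, 285, 294 and 91.5 CPM, a ratio of 6.08-fold (4.63 to 8.05). Without the highest cell of each library, the Ccl7 values were 322, 132, 226 and 80.7 CPM, so most of the higher level of that class at 2 days rests on 1 cell. Ccl7 was seen in 6 of 10 macrophage-like cells at 2 days and in 21 of 28 at 9 dpp.

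Ccl6 in the 2-day culture also leaned on 1 cell, which held 222 of the 291 UMIs of the class. The level was 3335 CPM with it and 888 without it, beside 170 CPM after 7 days, and 21.5 and 24.7 CPM without culture. Of the 10 cells, 5 had no Ccl6 UMI. In the 7-day culture 72 of the 91 UMIs were in 1 cell, and the level without it was 39.3 CPM. Ccl6 was detected in 5 of 10 and 6 of 17 macrophage-like cells of the cultures, and 1 cell held most of its UMIs in each.

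**Figure D4:**
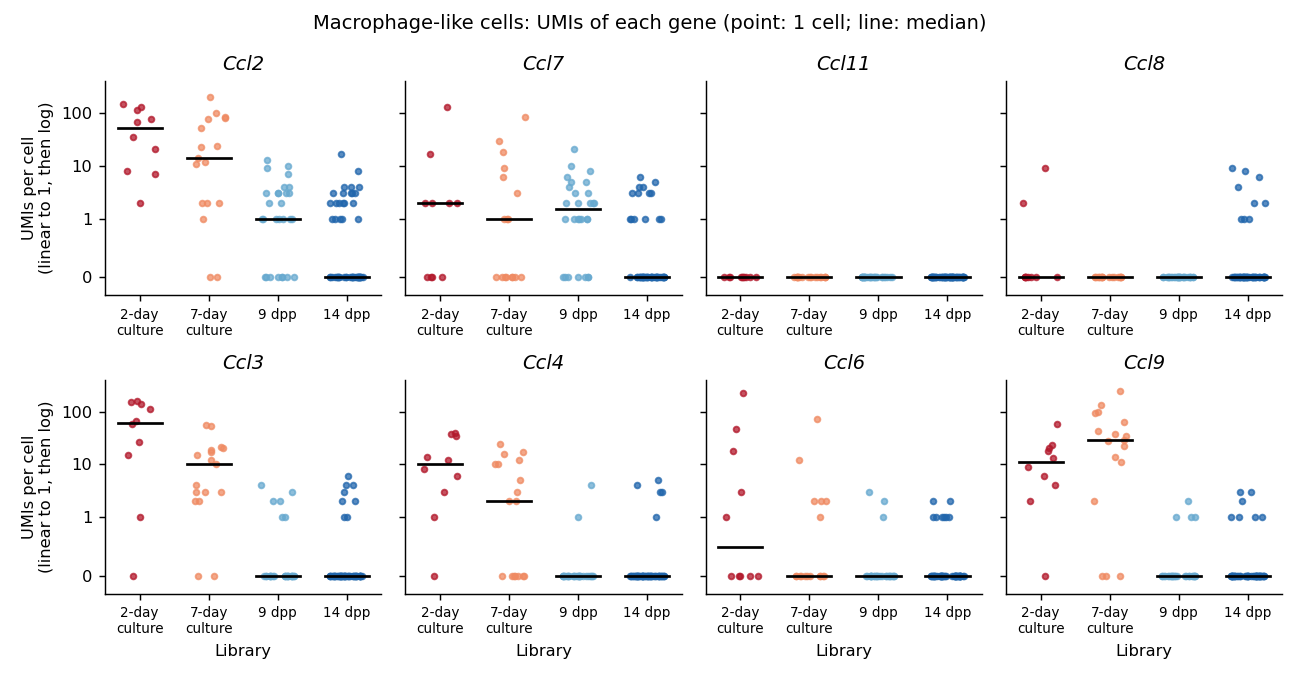
UMIs of each ligand in every macrophage-like cell (10, 17, 28 and 51 cells), with the median as a line and an axis that is linear up to 1 and logarithmic above. Ccl3, Ccl4 and Ccl9 are spread over most cultured cells, Ccl6 and Ccl7 have single cells far above the rest in the 2-day culture, and Ccl11 is at 0 throughout.

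Ccl9 was the ligand that was not lower in the longer culture. Its library level was 5.33-fold (4.50 to 6.33) higher in the 7-day than in the 2-day culture, while the other 7 were lower. Per cell, it ranged from 0 to 58 UMIs with a median of 11 at 2 days and from 0 to 240 with a median of 29 at 7 days. Macrophage-like cells had 1754 CPM of Ccl9 at 2 days and 1578 at 7 days, a ratio of 0.900 (0.757 to 1.08), beside 17.9 at 9 dpp and 29.7 at 14 dpp. At equal depth it was seen in 8 of 10 and 12 of 16 cells. The library's gain came with more macrophage-like cells, 17 of 4816 against 10 of 6877, and a higher median of UMIs per such cell, and within the class the level did not differ beyond counting error. In the same class Ccl3 was at 0.0537 (0.0462 to 0.0623) of its 2-day level, Ccl4 at 0.106 (0.0817 to 0.137) and Ccl2 at 0.180 (0.161 to 0.202).

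**Figure D5:**
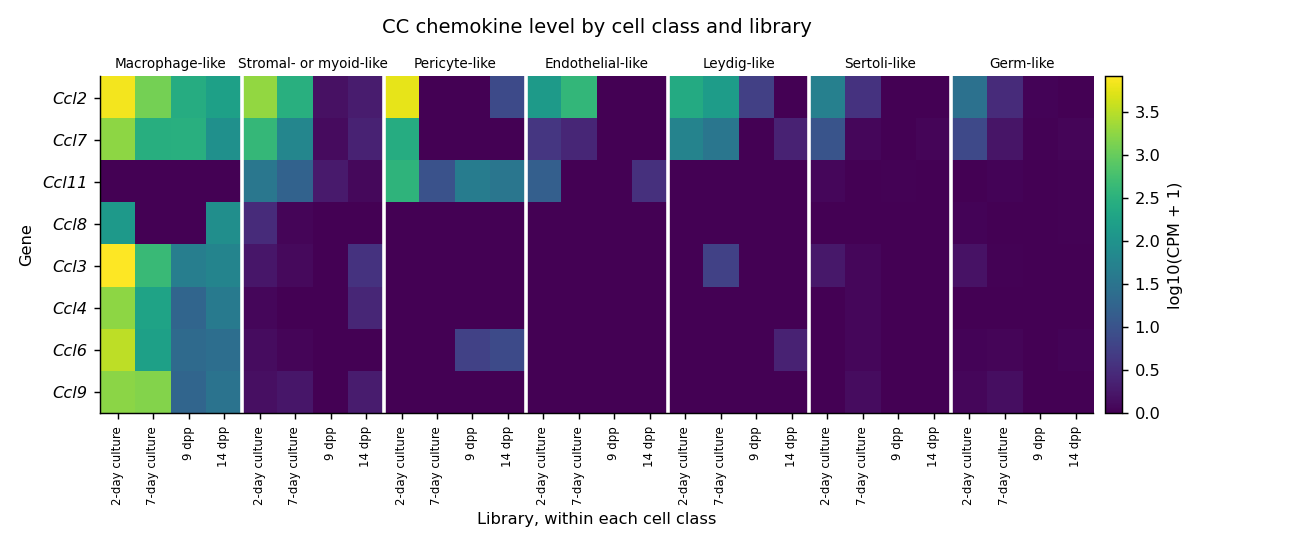
Level of each ligand, as log10 of CPM plus 1, in 7 cell classes and 4 libraries. Ccl3, Ccl4, Ccl6 and Ccl9 are bright in the macrophage-like block, Ccl2 and Ccl7 also in the stromal- or myoid-like block of the cultures, and Ccl11 is dark in the macrophage-like block.

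The classes that held Ccl8 differed in their shares between the 2 libraries with more than 1 UMI. In the 2-day culture 18 stromal- or myoid-like cells held 22 of its 34 UMIs, while 2 macrophage-like cells held 11. At 14 dpp 34 of its 40 UMIs were in 9 of 51 macrophage-like cells and 0 in stromal- or myoid-like cells. The macrophage-like level was 126 CPM (25.7 without the highest cell) at 2 days and 84.1 at 14 dpp, with 0 UMIs at 9 dpp and in the 7-day culture. In this class Ccl8 was at least 7.82-fold higher at 14 dpp than at 9 dpp, and at least 15.0-fold lower in the 7-day culture than at 14 dpp.

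Between the cultures, 1 ligand was past 2-fold higher at 7 days (Ccl9, where 4.52% of genes were higher) and 6 were past 2-fold lower (where 2.37% were lower). The level at 7 days, as a share of that at 2 days, was 0.132 for Ccl2, 0.182 for Ccl7, 0.241 for Ccl11, 0.319 for Ccl3 and 0.347 for Ccl6. With 10 added to CPM, the log2 ratios of Ccl11 (-0.82), Ccl3 (-0.93) and Ccl6 (-0.54) were short of 2-fold. That of Ccl6 was also short without its highest cell (-0.55). Ccl8 was also counted as lower, from 1 UMI against 34, but only just, at a log2 ratio of -1.004. It was short of 2-fold with all deposited barcodes (-0.97), with doublet calls kept (-0.99), with each cell weighted equally (-0.83), without its highest cell (-0.83) and with 10 added to CPM (-0.14). Ccl4, at 0.644 (0.503 to 0.823), was short of 2-fold. Within stromal- or myoid-like cells 3 of 3 were lower, at 0.157 for Ccl2, 0.148 for Ccl7 and 0.459 for Ccl11, where 3.33% of genes were lower. The log2 ratio of Ccl11 there was -0.81 without the highest cell and -0.78 with 10 added to CPM, both short of 2-fold, which leaves Ccl2 and Ccl7. As given above, the cultures differed in the clusters that held the class. Over all cells of each cluster, Ccl2 had 873 CPM at 2 days and 83.0 at 7 days in that with Plcxd3 first. It had 2526 and 550 CPM in that with Cxcl5 first. In that with C3 first it had 20.5 CPM, from 1 UMI, and 433. The part of this difference in the class ratios was not tested.

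Without culture, no ligand was past 2-fold between 14 dpp and 9 dpp on the scale with 1 added to CPM, where 4.09% of genes were higher and 1.97% lower. All levels were then under 2 CPM, where the added constant hides ratios. Without a constant, Ccl3 was 2.35-fold higher (1.30 to 4.43) at 14 dpp, Ccl4 4.92-fold (1.84 to 16.5) and Ccl9 3.89-fold (1.41 to 13.3), each from fewer than 40 UMIs. The Ccl4 and Ccl9 ratios rest on 5 UMIs each at 9 dpp, of which 1 cell held 4 for Ccl4 and 2 for Ccl9. A single stromal- or myoid-like cell of 14 dpp, with 9 stromal and 7 macrophage markers, held 14 of the 39 Ccl3, 8 of the 24 Ccl4 and 5 of the 19 Ccl9 UMIs. Inside the macrophage-like class the ratios were 1.22 (0.593 to 2.62) for Ccl3, 2.21 (0.773 to 7.71) for Ccl4 and 1.66 (0.543 to 6.00) for Ccl9. Macrophage-like cells made up 0.544% of cells at 9 dpp and 0.823% at 14 dpp. Ccl7 was at 0.605 (0.421 to 0.863) of its 9 dpp level at 14 dpp, and at 0.311 (0.205 to 0.464) inside the class. Ccl2 differed by less than counting error in whole libraries, at 1.10 (0.806 to 1.50), but inside the macrophage-like class it was at 0.652 (0.462 to 0.919) of its 9 dpp level. The whole-library levels of Ccl6 and Ccl11 did not differ between the 2 ages beyond counting error.

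The other CC ligands listed for the pathway numbered 13, of which 9 had at least 50 UMIs over the libraries. In the 2-day culture 5 of the 9 were past 2-fold higher and 1 lower than at 9 dpp, and in the later pair 2 were higher and 1 lower, where 4.19% and 3.41% of all genes were past 2-fold in the earlier pair and 3.6% and 2.67% in the later. Ccl5, which draws T cells and monocytes, had 58.7, 4.07, 0.156 and 0.125 CPM. In the 2-day culture stromal- or myoid-like cells held 82.3% of its UMIs, whereas in the 7-day culture a single macrophage-like cell held 128 of 151. Ccl17, a ligand of Ccr4, had 12.9, 6.03, 1.55 and 1.07 CPM and 56.4% of its UMIs in the 2-day culture were held by stromal- or myoid-like cells. On the scale with 1 added to CPM, Ccl12, Ccl19 and Ccl22 were past 2-fold higher in the earlier pair alone. Without a constant, their ratios in the later pair were 2.30 (1.75 to 3.03), 3.15 (1.57 to 6.64) and 5.68 (1.81 to 23.5). Whether the 2 pairs differ was not tested.

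Ccl24, another eotaxin, ran opposite to the 7 ligands that were higher in both pairs, and as in Ccl8 its level was lower in the 7-day culture than at 14 dpp. It had 2 and 0 UMIs in the cultures, against 170 and 139 in the uncultured testes. Of the uncultured UMIs, 166 and 127 were in macrophage-like cells, of which 22 of 28 and 33 of 51 carried it. Within that class it was at least 17.3-fold lower in the 2-day culture and at least 56.1-fold lower in the 7-day culture.

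Of 10 signalling receptors, 4 had enough UMIs. Ccr2, the receptor for Ccl2 and Ccl7, had 1, 1, 20 and 68 UMIs in the order of the libraries above, and was the 1 receptor past 2-fold lower in the later pair, where 2.67% of all genes were lower. In macrophage-like cells it had 0 UMIs in both cultures, 18 UMIs in 3 of 28 cells at 9 dpp and 59 in 11 of 51 cells at 14 dpp. Against a floor of 3 UMIs it was 26.1-fold lower in the 7-day culture than at 14 dpp. The same floor gave 1.88-fold lower in the 2-day culture than at 9 dpp. With Ccr2 in only 3 of 28 cells at 9 dpp, the 10 cells of the 2-day culture are too few to show a difference. Ccr1, the receptor for Ccl3, Ccl6 and Ccl9, was present in macrophage-like cells of all libraries, at 172, 98.9, 201 and 66.8 CPM. Ccr3, the receptor for Ccl11, had 13 UMIs in all and was not counted.

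Of 5 atypical and scavenging receptors, 3 had enough UMIs and 1, Ccrl2, was past 2-fold higher in the earlier pair, where 4.19% of all genes were, with 3.24, 2.37, 0.868 and 0.907 CPM. Of 12 cytokines and receptors that can induce chemokines, 8 had enough UMIs, and 3 were past 2-fold higher in the earlier pair and 0 in the later, where 4.19% and 3.6% of all genes were. Il1a, an early inflammatory cytokine, had 52 UMIs in 8 of 10 macrophage-like cells of the 2-day culture, and 14, 2 and 1 UMIs in those of the other libraries. Tnfrsf1a, a receptor for Tnf, had 197 and 207 CPM in stromal- or myoid-like cells of the cultures and 89.5 and 102 at 9 and 14 dpp. Il4ra, a receptor chain for Il4 and Il13, had 14.6 and 6.15 CPM in that class in the cultures, and 4 and 1 UMIs at 9 and 14 dpp. None of 5 modifiers and carriers (Dpp4 and the syndecans) was past 2-fold in either pair.

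The genes whose pattern was most like each ligand were listed by Pearson's r of log2(CPM plus 10) over 25 combinations of class and library with at least 20 cells. These points share libraries and depth, and r is a description. For Ccl2 they were Cxcl2 (0.89), Irgm2 (0.88) and Ccl7 (0.87), and for Ccl11 Fap (0.94), Apela (0.93) and Bhlhe22 (0.92). For Ccl7 they were Ifi211 (0.92), Gm4951 (0.90) and Fam26f (0.88). Ccl3 lay nearest to Sla, Ncf4 and Clec5a, Ccl4 to Lilr4b, Ccl9 and Alox5, Ccl9 to Gm21188, Selplg and Alox5, and Ccl8 to Kcnn4, Ms4a4b and Spn, with r of 0.98 and above. Cd300a and Hacd4 were among the genes nearest to Ccl6, both with r of 0.97. Among the ligands themselves, r was 0.97 between Ccl3 and Ccl4, 0.27 between Ccl2 and Ccl3, and -0.17 between Ccl3 and Ccl11. The macrophage-like cells of both cultures, 10 and 17 in number, are not among these points, so the patterns of the macrophage ligands rest on the uncultured libraries and the other classes.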

How the data were processed

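The deposited files hold raw counts of UMIs per gene and barcode for each of 4 libraries, made by the authors with Cell Ranger 3.0.2 and mm10 per the submitters' processing notes, from Chromium 3′ libraries per the labels. The annotation and the cell calling settings are not given in the sources used here, and the labels describe the library preparation with reference to female gonads although every sample is labelled testis. For 35 symbols that several identifiers share, the counts were summed. Barcodes needed at least 500 genes and no more than 20% of UMIs from mitochondrial genes, and the doublet calls of Scrublet (scanpy 1.11.5, expected rate 6%) were removed: 253, 93, 143 and 143 barcodes in the 2-day culture, 7-day culture, 9 dpp and 14 dpp.

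CPM are UMIs summed over cells, scaled to 1000000, with exact 95% Poisson intervals. Ratios have exact binomial intervals. Ratios for counting used 1 added to CPM, for genes that reached 50 UMIs in the libraries or class together. For ratios, a library or class at 0 UMIs was set to a floor of 3 UMIs, which leaves out the counting error of the other side. UMIs count 3′ ends and were not divided by gene length. The alternatives included other constants, filters and class rules, TMM factors of edgeR 4.0.16 on the deposited counts and Leiden clusters (leidenalg 0.10.2). With 1 library per group no model was fitted. Ratios and class rules were checked on simulated counts. The text may name the 8 ligands, genes of 5 pathway lists that reached 50 UMIs, and the 3 genes most like each ligand. Ccr3, cell markers and the first genes of clusters are named outside that rule. The ligands, lists and markers were chosen with earlier results of these data known. No column of per-sample values was left unused (0). Gene positions are from GENCODE on GRCm38, matched by identifier.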

Additional observations from a re-analysis of the deposited data

Results flagged for a closer look

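Some ligands moved in opposite directions with time in the uncultured and in the cultured testes. None of these differences was tested, since each group is 1 library. Ccl3 was 2.35-fold higher at 14 dpp than at 9 dpp and at 0.319 of its 2-day level in the 7-day culture. Ccl4 was 4.92-fold higher at 14 dpp and at 0.644 in the longer culture. Ccl8 was at least 13.7-fold higher at 14 dpp and at 0.0254 in the longer culture. For Ccl8 the comparison with culture also changed direction: at least 20.3-fold higher in the 2-day culture than at 9 dpp, and at 0.0379 of the 14 dpp level in the 7-day culture, from 1 UMI. Without the stromal- or myoid-like cell of 14 dpp that held 14 of its UMIs, Ccl3 at 14 dpp was 0.445 CPM in place of 0.694 and Ccl4 0.285 in place of 0.427. At 9 dpp 1 macrophage-like cell held 4 of the 5 Ccl4 UMIs, and without it the level there was 0.0174 CPM in place of 0.0868.

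Barcodes that the filter or the doublet calls left out, which the comparisons of the report do not use but 2 of the alternatives do, also carried Ccl2 and Ccl7 in culture. The 833 barcodes left out of the 2-day culture had 409 CPM of Ccl2 and 96.1 CPM of Ccl7, and the 333 left out of the 7-day culture had 32.3 and 27.1 CPM. Those left out of 9 and 14 dpp had at most 1 UMI of either gene.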

How the results depend on the processing

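Of 31 ligand ratios past 2-fold, each recomputed under its alternatives (355 values), all 355 kept their direction and 330 stayed past 2-fold. With 10 added to CPM, the count of ligands past 2-fold was 4 in the 2-day pair, 3 in the 7-day pair and 3 between the cultures, since the constant exceeds most levels. With each cell weighted equally it was 4 in the 7-day pair. Between 14 and 9 dpp it was 4 in whole libraries, all higher, with 0.1 added or with no constant and a floor of 3 UMIs. In stromal- or myoid-like cells between 14 and 9 dpp it was 2 with 0.1 added, 2 with no constant and 2 with no UMI minimum. In that class the 7-day pair gave 5 with no UMI minimum. With the highest cell of each ligand left out, chosen after seeing the data, the counts were 7, 6, 0 and 5 in whole libraries, and 6 ligands in place of 7 had their highest level in macrophage-like cells, Ccl7 then being highest in stromal- or myoid-like cells. Few UMIs limit the precision of Ccl8 and of the uncultured levels, although the uncultured libraries were the deeper ones. No paired analysis was possible because each group has 1 library.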
